A study of Mus musculus with 16 samples.

Results

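Cd300a, Cd300lb, Cd300ld, Cd300lf, Pirb, Pilra and Sirpa encode cell-surface receptors of myeloid cells from the CD300, PIR, PILR and SIRP families. They make up 7 of the 13085 genes listed in the deposited table, and all 7 were listed and passed the filter on low values. The set was chosen from these data, because Cd300lf was higher in NFAM1-/- than in NFAM1+/+ monocytes without stimulus at 6 h. That difference is therefore given as a description, with no test. The working name of the set, CD300 and paired inhibitory receptors, does not hold for 2 of its members. Cd300a, Cd300lf, Pirb, Pilra and Sirpa carry inhibitory motifs, whereas Cd300lb and Cd300ld are known as activating receptors.

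Paired receptors are families in which closely related genes encode inhibitory and activating members. Inhibitory members carry tyrosine motifs called ITIMs in their own tails and recruit the phosphatases Ptpn6, Ptpn11 or Inpp5d, while activating members have short tails and signal through adaptors with ITAM motifs such as Tyrobp and Fcer1g. CD300 proteins bind lipids such as phosphatidylserine on dying cells, Pirb binds MHC class I, and Sirpa binds Cd47, so that in monocytes these receptors set thresholds for activation and uptake.

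The study compared RNA of monocytes from NFAM1+/+ and NFAM1-/- mice by poly(A) RNA sequencing, with 16 libraries in all. NFAM1 is a receptor with an ITAM in its tail, and the NFAM1-/- allele lacks exons 2 and 3 after Cas9 cutting in C57BL/6NTac zygotes; both genotypes came from crosses of heterozygotes. According to the study methods the cells were enriched from bone marrow, while the cell type tag reads PBL Monocyte. The cells were cultured without stimulus, or with IFN-γ plus MegaCD40L, a multimer of the CD40 ligand.

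At 6 h there were 2 libraries each of unstimulated NFAM1+/+, unstimulated NFAM1-/-, stimulated NFAM1+/+ and stimulated NFAM1-/- cells. At 24 h there were 4 unstimulated and 4 stimulated libraries. Title and genotype tag name different genotypes for 4 of these 8 libraries, so genotype at 24 h is given as values alone. In these 4 libraries the source name gives the genotype of the title. Age is not given in the labels. The study used fewer mice than there are libraries, so that some libraries share a mouse, and the labels do not say which. The tests treat libraries as independent, and their p-values measure the spread between these libraries and not between mice. The deposited values are log2 CPM, counts relative to a scaled library size, and the reads behind each value were recovered from them. Summed over the listed genes, the depth of a library was 48295939 to 88514341 reads at 6 h and 56328053 to 77256316 at 24 h. Below, a gene is called when its difference is at least 2-fold with an adjusted p under 0.05 over all genes tested with limma; ± gives the standard error.

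The monocyte label was checked against 10 marker genes, all listed and led by Lyz2. Their summed level averaged 25080 CPM in unstimulated and 9339 CPM in stimulated cells at 6 h, then 29720 CPM and 10180 CPM at 24 h. With stimulus, 6 of the 10 fell and 2 (Ly6c2 and Fcgr1) rose at 6 h, and 8 fell and 1 (Ly6c2) rose at 24 h. Over all genes tested 20.1% were called lower and 19.5% higher at 6 h, and 18.7% and 14.6% at 24 h. The members below were measured in the same libraries, and the part of this marker change in their results was not tested. Fewer cells of a type and less RNA per cell cannot be told apart in these bulk samples.

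Markers of other cells were low beside these levels. The 12 neutrophil markers, led by Csf3r, summed to 428.6 and 492.9 CPM in unstimulated and stimulated cells at 6 h, and to 1349 and 406.1 CPM at 24 h. Of these, 9 besides Ly6g rose from 6 to 24 h without stimulus, where 13.3% of all genes tested were called higher, and 11 were called lower with stimulus at 24 h, where 18.7% of all genes were; the part of this list in the results was not tested. Ly6g, which defines neutrophils, reached at most 2.22 CPM in any library and passed the filter on low values only through libraries of 24 h. Dendritic cell markers, 5 of 5 listed, summed to 56.0, 24.1, 206.6 and 27.0 CPM in the same order of conditions. Flt3 was the most abundant of them without stimulus (25.11 CPM at 6 h, 104.9 at 24 h) and Zbtb46 with it (11.62 and 19.41 CPM). With stimulus Zbtb46 and Xcr1 were called higher and Flt3 lower at both times, and Siglech lower at 24 h. Cd209a fell from 22.9 to 0.2445 CPM at 6 h and from 79.68 to 0.08726 CPM at 24 h, but passed the filter on low values only through unstimulated libraries and had to differ. For mast cells, basophils and eosinophils the 6 markers, led by Prg2, gave 39.8, 58.7, 63.5 and 14.4 CPM. The 3 B cell markers in the table, of which Igkc was the most abundant except in unstimulated cells at 24 h (Cd79b), gave 88.8, 98.9, 21.8 and 10.7 CPM, while Ms4a1, Pax5 and Ebf1 were not listed. The 2 plasma cell markers, led by Jchain at 6 h and by Sdc1 at 24 h, gave 28.4, 23.3, 16.2 and 4.37 CPM. T cell markers stayed at or under 3.85 CPM on average in each condition. Cd8a was the more abundant of the 2 listed except in stimulated cells at 6 h, where Lck measured 2.881 CPM, with Cd3e, Cd3d, Cd3g and Trac not listed. Erythroid and megakaryocyte markers, 4 of 6 listed and led by Hbb-bs except in stimulated cells at 24 h (Itga2b), gave 9.36, 19.1, 15.1 and 3.52 CPM. None of the 4 NK cell markers was listed. The part of these lists in the results was not tested.

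Cd300lf, an ITIM receptor for phosphatidylserine and ceramide, was the gene on which the set was chosen. In unstimulated cells at 6 h it measured 2.01 and 1.94 log2 CPM in the NFAM1+/+ libraries, from 453 and 238 reads, and 2.91 and 3.18 log2 CPM in the NFAM1-/- libraries, from 864 and 1039 reads. Both NFAM1-/- libraries lay above both NFAM1+/+ libraries. The difference was 1.08 ± 0.12 on the log2 scale, or 2.11-fold, and since it chose the set nothing more is read from it. Among all 12111 genes fitted at 6 h, 0.0413% were called higher and 0.0248% lower in this comparison.

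The other members differed less between genotypes in these libraries, again as a description. NFAM1-/- minus NFAM1+/+ was -0.36 for Cd300ld, -0.35 for Pilra, -0.18 for Pirb and -0.091 for Cd300lb on the log2 scale. Cd300a and Sirpa had the same mean to within 0.0015 and 0.00086. Both NFAM1-/- libraries lay below both NFAM1+/+ libraries for Cd300ld, Pilra and Pirb, and the genotypes overlapped for Cd300lb, Cd300a and Sirpa. The share of all genes with such patterns was not counted in these libraries, so nothing is read from this tally. In stimulated cells at 6 h, with as many libraries, 24.0% of all genes lay above and 19.0% below in this way. Nfam1 itself, counted over the whole gene with its undeleted exons, measured 8.76 and 8.67 log2 CPM in NFAM1+/+ and 8.23 and 8.33 in NFAM1-/- libraries. Its mean was 0.44 lower without NFAM1, so these 4 libraries separate in the direction of their labels. The first NFAM1-/- library stood apart in the summed markers of mast cells, basophils and eosinophils, with 11.7 CPM beside 46.0 to 51.3 CPM in the other 3. It was also the lowest of the 4 in the neutrophil, B cell, plasma cell and erythroid and megakaryocyte sums, and no list in the table separated the genotypes. Without it the Cd300lf difference was 1.21, and without the second NFAM1-/- library 0.94; the part of these markers in the result was not tested.

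**Figure D1:**
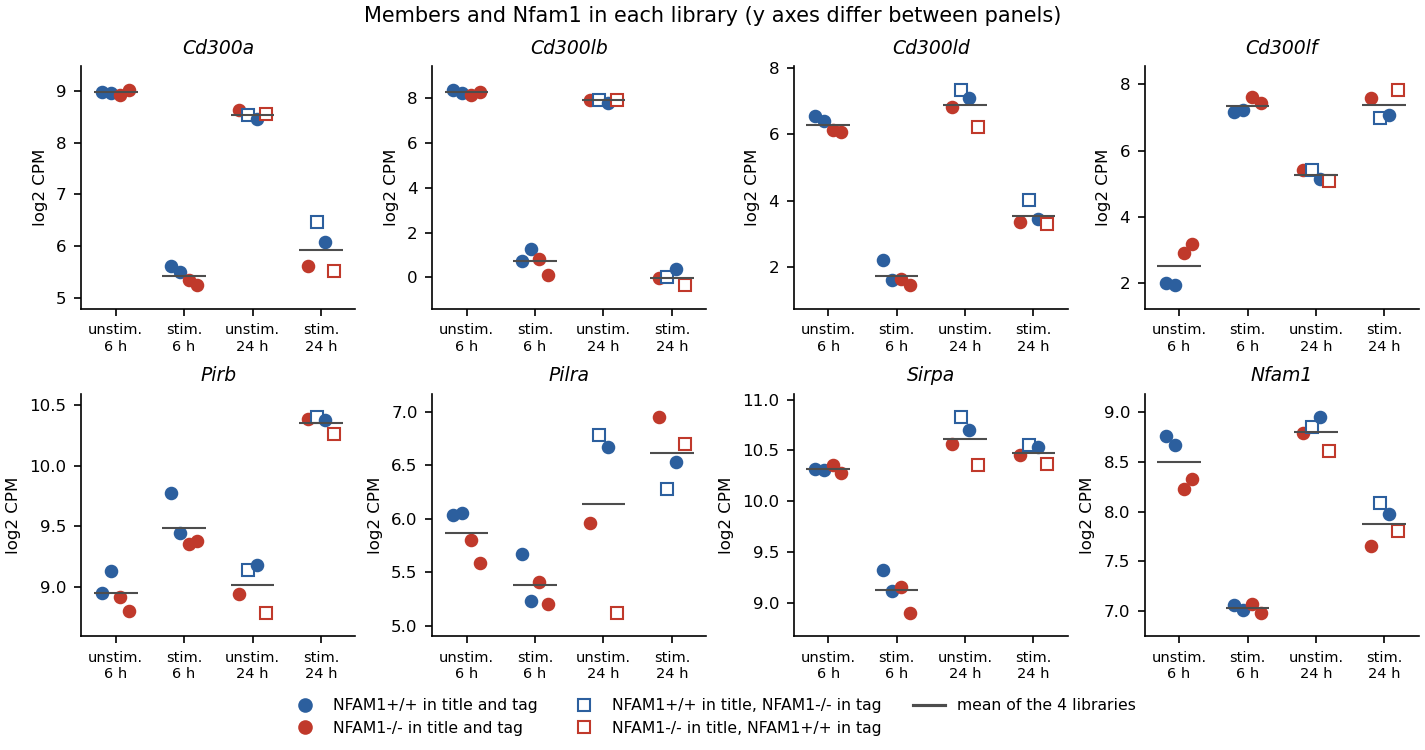
Deposited log2 CPM (vertical axis) of the 7 members and Nfam1 in each of the 16 libraries, with 1 panel per gene and the libraries placed by stimulus and time (horizontal axis). Each symbol is 1 library, blue for NFAM1+/+ and red for NFAM1-/- in the title, open squares mark libraries whose tag names the other genotype, and lines are means of 4 libraries. Cd300lf goes from 1.94 log2 CPM in an unstimulated 6 h library to 7.84 in a stimulated 24 h library, while Cd300lb goes from 8.36 down to -0.35.

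Levels of different genes were compared as CPM per kilobase of exonic length. In unstimulated cells at 6 h Sirpa was the most abundant at 259.5 ± 6.0 CPM per kilobase (SD, n = 4 libraries). Pirb (111 ± 10.7), Cd300a (105.4 ± 3.3) and Cd300lb (104.4 ± 6.5) came next on this scale, with ranges that overlapped from each to the next. Cd300ld followed at 29.8, Pilra at 19.1 and Cd300lf last at 1.19 CPM per kilobase.

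After 6 h with stimulus the order of levels was different. Pirb led at 161.9 CPM per kilobase, before Sirpa at 114.2, Cd300lf at 32.2, Pilra at 13.6 and Cd300a at 9.18. The activating receptors came last, with 1.28 CPM per kilobase for Cd300ld and 0.597 for Cd300lb, and no neighbours in this order overlapped. At 24 h without stimulus Sirpa (321) and Pirb (116.3) led, and Cd300lf was again the lowest at 7.51 CPM per kilobase. In that condition Cd300lb (80.6) overlapped Cd300a (78.4), and Cd300ld (46.2) overlapped Pilra (25.0). At 24 h with stimulus Pirb (293.1) overlapped Sirpa (290.8), Cd300lf (33.3) overlapped Pilra (32.2), and Cd300a (13.3), Cd300ld (4.47) and Cd300lb (0.348) followed. Per kilobase of coding length Sirpa was first in all 4 conditions, and Pirb was 4th instead of 2nd in both unstimulated ones.

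With IFN-γ plus CD40L for 6 h, 1 member rose and 4 fell, where 19.5% of all genes tested were called higher and 20.1% lower. The inhibitory receptor Cd300lf rose, and Cd300a, Cd300lb, Cd300ld and Sirpa fell. The members' median difference was -1.19 on the log2 scale, beside -0.11 over all 12111 genes tested.

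Stimulated libraries at 6 h gave 7.15 and 7.23 log2 CPM of Cd300lf in NFAM1+/+ cells and 7.62 and 7.43 in NFAM1-/- cells. All 4 lay above 3.18 log2 CPM, the highest of the 4 unstimulated libraries. Averaged over genotype, Cd300lf was 28.9-fold higher with stimulus (4.85 ± 0.082 on the log2 scale, 4 against 4 libraries, adjusted p = 4.54e-11). Within the genotypes the values were 37.3-fold in NFAM1+/+ and 22.3-fold in NFAM1-/- cells. The gap between them, -0.74 ± 0.16 on the log2 scale, contains the unstimulated difference that chose the set and was not tested.

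Cd300lb, an activating receptor that signals through Tyrobp, showed the opposite pattern. It measured 8.36 and 8.23 log2 CPM in NFAM1+/+ and 8.14 and 8.27 in NFAM1-/- cells without stimulus. With stimulus the values were 0.75 and 1.28 in NFAM1+/+ and 0.84 and 0.099 in NFAM1-/- cells. The stimulated libraries held 92, 128, 110 and 54 reads of this gene, against at least 18736 in each unstimulated library at 6 h. Cd300lb was 182-fold lower with stimulus (-7.51 ± 0.17, n = 4 and 4, adjusted p = 2.3e-10).

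Cd300a, an ITIM receptor for phosphatidylserine and phosphatidylethanolamine, also fell. Without stimulus it measured 8.98 and 8.95 log2 CPM in NFAM1+/+ and 8.91 and 9.02 in NFAM1-/- libraries. Stimulated NFAM1+/+ libraries gave 5.62 and 5.51 log2 CPM, and stimulated NFAM1-/- libraries 5.35 and 5.25. The stimulated and unstimulated libraries did not overlap, and the difference was 11.5-fold lower (-3.53 ± 0.054, n = 4 and 4, adjusted p = 2.38e-11).

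Cd300ld, an activating receptor that pairs with Fcer1g, gave 6.54, 6.40, 6.13 and 6.08 log2 CPM without stimulus in the order NFAM1+/+ then NFAM1-/-. The stimulated libraries in the same order gave 2.21, 1.61, 1.65 and 1.46. All stimulated libraries were below all unstimulated ones, 23.5-fold on average (-4.56 ± 0.13, adjusted p = 1.32e-09). Sirpa, the ITIM receptor for the marker of self Cd47, went from 10.32, 10.31, 10.36 and 10.28 log2 CPM to 9.32, 9.11, 9.15 and 8.90. Its groups did not overlap either, and its fall was 2.29-fold (-1.19 ± 0.073, adjusted p = 2.91e-07).

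Pirb and Pilra were not called at 6 h. Pirb, an ITIM receptor for MHC class I, measured 8.80 to 9.13 log2 CPM without stimulus and 9.36 to 9.78 with it, a difference of 0.54 ± 0.079 (adjusted p = 0.000159) that is under 2-fold. When each library was scaled to its own total of reads the median of all genes was -0.84 in place of -0.11, and Pirb was at -0.19. Relative to the median of all genes Pirb was 0.65 higher. Under quantile normalization its difference was -0.47. Pilra, whose ITIM-bearing protein binds sialylated glycoproteins, measured 5.59 to 6.05 log2 CPM without stimulus and 5.20 to 5.67 with it. Its difference of -0.49 ± 0.10 (adjusted p = 0.00159) is under 2-fold; it was called with no minimum fold change and, at -1.22, under scaling to the own total of reads.

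Transcripts of these 2 genes share sequence or position with other genes. How reads from the shared parts were counted was not examined. Of the 101-base windows in Pirb transcripts 20.6% also occur in 10 other genes, most often Gm14548, and for Pilra the share is 11.9% in 2 genes. Pilra has 468 exonic bases, 15.1% of its length, on the opposite strand of Zcwpw1, and the libraries are not stranded. Shared windows made up 1.34% of Cd300ld, 0.828% of Cd300a and 0.625% of Cd300lf, and none were found for Cd300lb or Sirpa.

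**Figure D2:**
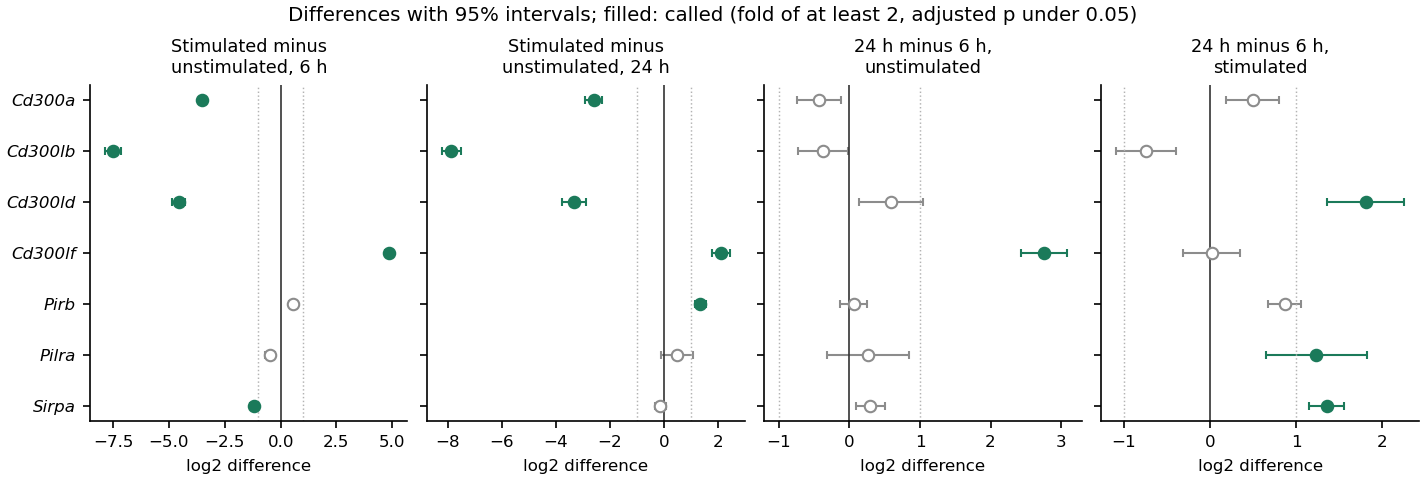
Log2 differences of the 7 members (horizontal axis) with stimulus at 6 h and 24 h and over time without and with stimulus, with points at the estimate, filled where called, and bars for the 95% interval from limma. At 6 h with stimulus Cd300lf stands at 4.85, and Cd300lb, Cd300ld, Cd300a and Sirpa stand at -7.51, -4.56, -3.53 and -1.19.

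The 4 CD300 members lie in 1 cluster on mouse chromosome 11, while Sirpa, Pilra and Pirb lie on chromosomes 2, 5 and 7. In the RefSeq annotation of GRCm38.p6 the cluster runs Cd300a, Cd300lb, Cd300c, Cd300ld, Cd300c2, Cd300ld4, Cd300ld2, Cd300ld5, Cd300ld3, Cd300e and Cd300lf, with the pseudogene Gm11699 between Cd300lb and Cd300c. Cd300lf, at 1 end, rose with stimulus at 6 h, while Cd300a and Cd300lb at the opposite end fell, as did Cd300ld, Cd300c2 and Cd300e between them. Cd300c was lower too, but it passed the filter on low values only through unstimulated libraries and had to differ. Rab37 lies with Cd300lf on the opposite strand and shares 0 exonic bases with it. It held 34 to 151 reads in any library, beside 7822 to 12176 reads of Cd300lf in stimulated cells at 6 h. Rab37 rose over time without stimulus (1.27 ± 0.30, adjusted p = 0.00191), the direction of Cd300lf. With stimulus at 6 h it passed the filter on low values only through stimulated libraries and had to be higher. Its value for stimulus by time (-1.51 ± 0.43) contains that difference, so nothing is read from either. With stimulus at 24 h Rab37 differed by -0.40 and was not called.

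Because neighbours in this cluster moved in opposite directions, the promoters of the 4 CD300 members are shown from 250 bases before to 50 bases after the gene start, read 5′ to 3′ on the strand of the gene. They come from RefSeq on GRCm38.p6, where 6 of the 7 members had an entry: Cd300lf at chr11:115133943-115134242 (minus strand), Cd300lb at chr11:114934322-114934621 (minus), Cd300a at chr11:114889791-114890090 (plus) and Cd300ld at chr11:114989837-114990136 (minus). Capitals mark matches, on either strand, to the GAS element TTCNNNGAA of STAT factors, the ISRE core GAAANNGAAA of interferon-responsive genes and the core GAGGAAG of the myeloid factor PU.1.
Cd300lf: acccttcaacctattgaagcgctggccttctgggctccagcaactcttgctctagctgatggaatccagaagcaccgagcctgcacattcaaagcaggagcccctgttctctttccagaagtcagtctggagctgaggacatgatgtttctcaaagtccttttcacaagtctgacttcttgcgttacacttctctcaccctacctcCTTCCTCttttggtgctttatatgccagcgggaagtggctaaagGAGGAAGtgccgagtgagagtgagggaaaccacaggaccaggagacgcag
Cd300lb: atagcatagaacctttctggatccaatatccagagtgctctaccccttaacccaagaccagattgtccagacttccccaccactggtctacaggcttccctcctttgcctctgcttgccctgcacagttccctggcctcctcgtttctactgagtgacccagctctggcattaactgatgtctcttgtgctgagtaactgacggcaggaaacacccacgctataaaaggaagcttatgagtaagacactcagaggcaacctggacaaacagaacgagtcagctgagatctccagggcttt
Cd300a: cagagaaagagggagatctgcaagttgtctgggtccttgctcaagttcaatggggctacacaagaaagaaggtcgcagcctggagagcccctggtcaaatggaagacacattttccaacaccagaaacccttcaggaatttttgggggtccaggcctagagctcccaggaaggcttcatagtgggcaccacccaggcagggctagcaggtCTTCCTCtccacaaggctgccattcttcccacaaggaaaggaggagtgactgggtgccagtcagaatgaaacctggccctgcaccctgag
Cd300ld: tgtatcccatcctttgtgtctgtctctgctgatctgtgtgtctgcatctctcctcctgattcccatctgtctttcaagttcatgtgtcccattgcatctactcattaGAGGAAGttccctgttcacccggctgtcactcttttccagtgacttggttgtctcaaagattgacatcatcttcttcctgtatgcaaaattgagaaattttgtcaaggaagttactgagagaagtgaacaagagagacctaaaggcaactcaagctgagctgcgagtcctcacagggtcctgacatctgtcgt

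All capitals in these 4 windows are PU.1 cores. Cd300lf holds 2, at bases 207 to 213 on the reverse and 251 to 257 on the forward strand, Cd300a holds 1 at 211 to 217 (reverse) and Cd300ld 1 at 108 to 114 (forward). Pirb (131 to 137) and Pilra (40 to 46) hold 1 each, so that the core is present in 5 of the 6 member promoters and in 13.6% of all 32851 promoters of the same length. The letters of the ISRE core were found in Pilra (73 to 82) among the members, and in 3.44% of all promoters. Those of the GAS element were found in no member promoter and in 8.3% of all. A match to the kappaB motif was present in Cd300a (82 to 91) and in 4.51% of promoters. AP-1 (TGANTCA, 7.81% of promoters) and the E-box (CACGTG, 7.15%) had no match among the members. A match describes the letters of the window and not a bound site.

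**Figure D3:**
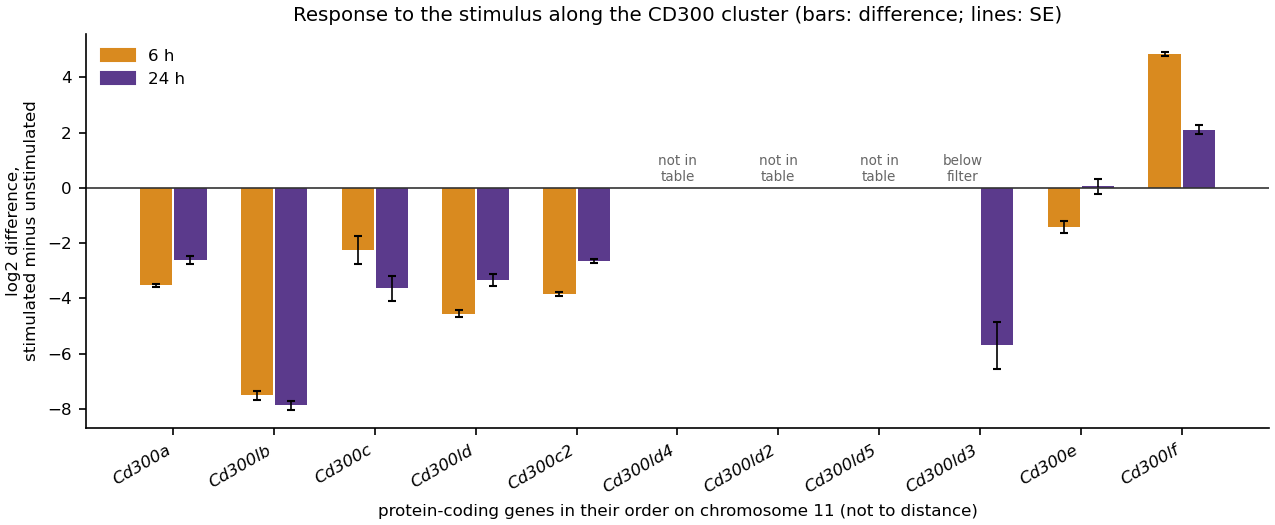
Log2 differences with stimulus (vertical axis) at 6 h and 24 h for the genes of the CD300 cluster, placed in their order along chromosome 11 (horizontal axis, order only); bars are differences and thin lines the standard error from limma. At 6 h Cd300lf is above 0 at 4.85 and the other genes drawn are below 0, among them Cd300c, which was under 1 CPM in every stimulated library; the 24 h bar of Cd300ld3 rests on 0 to 4 reads per stimulated library.

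The 24 h libraries address whether the receptors stay changed with longer stimulation. Values at 24 h are given in a fixed order of labels: NFAM1-/- in title and tag, titled NFAM1+/+ but tagged NFAM1-/-, NFAM1+/+ in both, and titled NFAM1-/- but tagged NFAM1+/+. At this time 2 members rose and 3 fell, where 14.6% of all 12782 genes tested were called higher and 18.7% lower. Cd300lf and Pirb were higher, and Cd300a, Cd300lb and Cd300ld lower, and the members' median was -0.13 beside 0.007 over all genes tested.

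Cd300lf measured 5.43, 5.40, 5.14 and 5.09 log2 CPM without stimulus at 24 h and 7.60, 6.99, 7.08 and 7.84 with it. The groups did not overlap, and Cd300lf was 4.33-fold higher with stimulus (2.11 ± 0.15, n = 4 and 4, adjusted p = 7.37e-09). Pirb gave 8.94, 9.14, 9.18 and 8.79 log2 CPM without stimulus and 10.38, 10.40, 10.38 and 10.26 with it. It was 2.53-fold higher (1.34 ± 0.090, adjusted p = 2.71e-09), and under quantile normalization its difference was 0.79, under the fold threshold.

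Cd300lb stayed near its lowest level. It measured 7.89, 7.92, 7.78 and 7.92 log2 CPM without stimulus, and -0.043, 0.015, 0.37 and -0.35 with it, from 62 to 86 reads per library. The difference was 235-fold lower (-7.88 ± 0.16, adjusted p = 4.76e-15). Cd300a gave 8.62, 8.53, 8.45 and 8.55 log2 CPM without stimulus and 5.63, 6.46, 6.08 and 5.53 with it, 6.09-fold lower (-2.61 ± 0.15, adjusted p = 3.09e-10). Cd300ld gave 6.83, 7.35, 7.10 and 6.23 against 3.36, 4.01, 3.46 and 3.31 log2 CPM, 10.1-fold lower (-3.34 ± 0.21, adjusted p = 1.23e-09). In each of these 3 genes every stimulated library was below every unstimulated library.

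Sirpa and Pilra were not called at 24 h. Sirpa ranged from 10.36 to 10.83 log2 CPM without and from 10.36 to 10.55 with stimulus, and its difference was -0.13 ± 0.094 (95% interval -0.34 to 0.068, adjusted p = 0.211). Pilra measured 5.96, 6.78, 6.67 and 5.12 log2 CPM without stimulus and 6.95, 6.28, 6.53 and 6.70 with it. Among the unstimulated values of Pilra those titled NFAM1-/- were the lowest. The stimulated range lay within the unstimulated one except for its highest library, and the difference was 0.48 ± 0.27 (95% interval -0.11 to 1.07, adjusted p = 0.126). Without single libraries it ranged from 0.14 to 0.70. By title the NFAM1+/+ mean went from 6.73 to 6.40 with stimulus and the NFAM1-/- mean from 5.54 to 6.83. By tag these means went from 5.90 to 6.62 and from 6.37 to 6.61.

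Time in culture was compared next, first without stimulus. From 6 to 24 h, 1 member, Cd300lf, rose and none fell, where 13.3% of all genes tested were called higher and 7.71% lower. All 4 unstimulated libraries at 24 h, at 5.09 to 5.43 log2 CPM, lay above the 4 at 6 h, at 1.94 to 3.18. The rise was 6.76-fold (2.76 ± 0.15, n = 4 and 4, adjusted p = 1.17e-09). The lowest 24 h library was above both NFAM1-/- libraries of 6 h. The other 6 members differed by -0.43 (Cd300a) to 0.59 (Cd300ld) on the log2 scale, and the median of the 7 was 0.27 beside 0.044 over all genes. Time is also the set of libraries, so that culture time and handling of the sets cannot be told apart.

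With stimulus, 3 members rose from 6 to 24 h and none fell, where 16.5% of all genes tested were called higher and 17.1% lower. Sirpa rose 2.56-fold (1.36 ± 0.094, adjusted p = 4.38e-09), from 8.90 to 9.32 log2 CPM at 6 h to 10.36 to 10.55 at 24 h. Cd300ld rose 3.49-fold (1.81 ± 0.21, adjusted p = 1.45e-06) and Pilra 2.35-fold (1.24 ± 0.27, adjusted p = 0.000807). In all 3 the 24 h libraries lay above every 6 h library. Cd300lf, by contrast, ranged from 7.15 to 7.62 at 6 h and from 6.99 to 7.84 log2 CPM at 24 h. Its difference was 0.019 ± 0.15 (95% interval -0.31 to 0.35, adjusted p = 0.919), and its sign turned when each library was centred on its median (-0.16) or when single libraries were left out. Pirb (0.87), Cd300a (0.49) and Cd300lb (-0.74) differed by less than 2-fold. Pirb passed the threshold under quantile normalization (1.33) and under scaling to the own total of reads (1.24), with 4 members called in either case. The own total of reads called 4890 of all genes, 69.4% of them higher, in place of 4287 with 49.1% higher. The median of the 7 members was 0.87 on the log2 scale, beside 0.042 over all genes tested.

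Whether the stimulus response itself differed between times was tested as the 24 h response minus the 6 h response. Here 2 members were called higher and 1 lower, where 13.3% of all genes tested were called higher and 18.1% lower. The response of Cd300lf was smaller at 24 h by 6.67-fold (-2.74 ± 0.22, adjusted p = 5.85e-08). Its unstimulated level was higher at 24 h, and its stimulated ranges at both times overlapped. Cd300ld (1.21 ± 0.30, adjusted p = 0.00224) and Sirpa (1.06 ± 0.13, adjusted p = 5.91e-06) had a weaker fall at 24 h than at 6 h. Both of these calls were near the fold threshold. Without the unstimulated 24 h library titled NFAM1-/- and tagged NFAM1+/+ Cd300ld was at 0.997 and Sirpa at 0.97, leaving 1 member called, and without the second stimulated NFAM1-/- library of 6 h Sirpa was at 0.995. Median centring left Sirpa at 0.90. Quantile normalization left Cd300ld at 0.96 and called Pirb, at 1.26. Among the libraries with agreeing genotype labels alone, an alternative chosen after seeing the data, Cd300ld was at 0.995. Cd300a (0.92), Pilra (0.97), Pirb (0.80) and Cd300lb (-0.37) were not called, the first 2 of them close to the threshold. Under scaling to the own total of reads Cd300a (1.32), Pilra (1.37) and Pirb (1.199) were called higher, for 6 members in all. That scaling called 4792 of all genes, 67.5% of them higher, in place of 4013 with 42.4% higher. Pilra was also called, at 1.02 to 1.19, without any 1 of 6 libraries: at 6 h the second unstimulated NFAM1-/-, the first stimulated NFAM1+/+ and the first stimulated NFAM1-/- library, and at 24 h both unstimulated libraries titled NFAM1+/+ and the stimulated library titled NFAM1+/+ and tagged NFAM1-/-. Cd300a was called without either stimulated 24 h library titled NFAM1-/- (1.02 and 1.05). In this comparison the median of the 7 was 0.92 beside 0.043 over all genes.

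Genotype was tested in stimulated cells at 6 h, in libraries that the choice of the set did not use. With limma 0 of the 7 members were called, where 0.0248% of all genes tested were called higher and 0.00826% lower. Those are 4 genes, Gm26880, Chil3 and Mmp8 higher and Igkv8-21 lower, named after their values were seen, while 1522 genes had an unadjusted p under 0.05. The number of genes called was 135 without the second NFAM1+/+ library and 0 without the first, with 0 members in either case. Cd300lf measured 7.62 and 7.43 log2 CPM in NFAM1-/- and 7.15 and 7.23 in NFAM1+/+ libraries. Both NFAM1-/- libraries were above both NFAM1+/+ libraries, by 0.33 ± 0.12 on average (95% interval 0.072 to 0.60, n = 2 and 2, adjusted p = 0.347). Cd300a was lower by a log2 difference of -0.27 ± 0.076 (adjusted p = 0.323), Cd300lb by -0.55 ± 0.23 (adjusted p = 0.39) and Cd300ld by -0.36 ± 0.18 (adjusted p = 0.453). Pirb, Sirpa and Pilra differed by -0.24, -0.19 and -0.14, and the members' median was -0.24 beside 0.014 over all genes. The 95% intervals of Cd300lf, Cd300a and Cd300lb excluded 0 before adjustment. Without single libraries Cd300lb ranged from -0.92 to -0.18 and Cd300ld from -0.66 to -0.055. In the same way Pirb ranged from -0.41 to -0.078 and Sirpa from -0.32 to -0.064. Both NFAM1-/- libraries lay above both NFAM1+/+ libraries for 1 member, Cd300lf, and below them for 2, Cd300a and Pirb; over all genes these patterns held for 24.0% and 19.0%. Summed monocyte markers were higher in both NFAM1-/- libraries, at 10360 and 10010 CPM beside 8393 and 8592 CPM. Those of dendritic cells (19.58 and 22.02 beside 29.62 and 25.28 CPM) and of erythroid cells and megakaryocytes (8.203 and 12.01 beside 37.34 and 18.85 CPM) were lower, and the genotypes overlapped in the other lists in the table. The first NFAM1-/- library had the lowest mast cell, basophil and eosinophil markers, 14.3 CPM beside 59.8 to 87.0 CPM, and the lowest neutrophil, B cell and plasma cell sums. The part of these lists in the result was not tested. Nfam1 did not separate the labelled genotypes here, with 7.07 and 6.98 log2 CPM in NFAM1-/- and 7.06 and 7.01 in NFAM1+/+ libraries.

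At 24 h the genotype labels could be read in more than 1 way, so each reading is given. Between the libraries whose title and tag agree, 1 of each genotype, Cd300lf was 0.29 higher in NFAM1-/- without stimulus and 0.52 higher with it on the log2 scale. By title, with 2 libraries per genotype, the differences were -0.013 without and 0.69 with stimulus, and by tag 0.30 and -0.16. The sign of the Cd300lf difference therefore depends on which label is read. The source name, a further label, gives the genotype of the title in every library. Nfam1 was lower in NFAM1-/- by title, at -0.20 without and -0.30 with stimulus, and by tag it differed by 0.039 and -0.023.

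Members whose labelled genotypes did not overlap at 24 h were counted for each reading. By title without stimulus 1 member, Cd300a, was higher in both NFAM1-/- libraries and 4 (Cd300ld, Pirb, Pilra and Sirpa) were lower, beside 21.9% and 23.5% of all genes. With stimulus, by title, Cd300lf and Pilra were higher and Cd300a, Cd300lb, Cd300ld and Sirpa lower, or 2 and 4 members beside 24.9% and 23.2% of genes. By tag 1 member was higher and 0 lower in each condition, Cd300lf without stimulus (13.8% and 11.7% of genes) and Pirb with it (14.8% and 14.5%). The widest gap by title was that of Pilra without stimulus, at -1.19 on the log2 scale, and by tag the same libraries gave 0.48.

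Summed markers of cell types also differed by these labels at 24 h. Without stimulus the libraries titled NFAM1-/- had 251.4 and 288.1 CPM of dendritic cell markers beside 135.7 and 151.2 CPM in those titled NFAM1+/+. Their neutrophil sums were 1657 and 1411 beside 1213 and 1114 CPM, and their monocyte sums 29280 and 27330 beside 31210 and 31080 CPM. T cell and plasma cell sums were also higher by title, and erythroid and megakaryocyte sums lower. With stimulus the monocyte sums were higher by title, at 11550 and 11580 beside 8366 and 9213 CPM, and erythroid and megakaryocyte sums lower. By tag the mast cell, basophil and eosinophil sums were higher in both NFAM1-/- libraries, at 101.2 and 59.93 beside 54.8 and 38.16 CPM without stimulus and at 18.57 and 18.2 beside 13.19 and 7.661 CPM with it. B cell sums were higher by tag without stimulus and lower with it, and with stimulus neutrophil and plasma cell sums were higher and T cell sums lower. In the other lists in the table the labelled genotypes overlapped. The part of these lists in the genotype values was not tested.

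The lists of related genes were read next, and from each the 4 called genes with the largest change are described. Cd300e, Sirpb1a, Sirpb1b, Sirpb1c, Pilrb1, Pira2, Lair1, Fcgr2b, Cd72 and the adaptors are named besides, after their values were seen. For comparison, 19.5% of all genes tested were called higher and 20.1% lower with stimulus at 6 h, and 14.6% and 18.7% at 24 h, with medians of -0.11 and 0.007. Of 9 other CD300 genes 5 were listed. Cd300c and Cd300ld3 passed the filter on low values only through unstimulated libraries and had to be lower with stimulus, so no count or median over these genes is given. Cd300c2 was 14.3-fold lower at 6 h (-3.84 ± 0.070, adjusted p = 7.06e-11) and 6.22-fold lower at 24 h, and Cd300lg was 6.65-fold and 58.2-fold lower, with at most 0.383 CPM in a stimulated library at 24 h. Cd300c held 138 to 431 reads per unstimulated library and 12 to 43 per stimulated library. Cd300e fell at 6 h (-1.41) and measured 0.067 at 24 h, where its sign turned under scaling to the own total of reads (-0.27). Cd300ld3 held 50 to 129 reads in unstimulated libraries at 24 h and 0 to 4 in stimulated ones. Over time without stimulus Cd300c2 rose and Cd300e fell, and with stimulus Cd300c2 rose and Cd300lg fell.

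The activating counterparts, which signal through Tyrobp or Fcer1g, were called lower in 6 of 9 genes at 6 h and higher in 0, where 20.1% of all genes tested were called lower and 19.5% higher. The list holds 15 genes, of which 9 were in the table. Among the 9 are Trem1, Trem2 and Trem3, which belong to none of the families of the members. Its median was -1.23 at 6 h and -0.74 at 24 h, beside -0.11 and 0.007 over all genes. Scaling to the own total of reads called 7 of the 9 lower at 6 h and 5 at 24 h. It also called 6720 and 4718 of all genes, in place of 4798 and 4255. Of these 22.6% and 30.4% were higher, and the median of all genes was -0.84 and -0.33. Without this scaling the 6 called lower at 6 h included the TREM receptors Trem1 (-1.53), Trem2 (-1.29) and Trem3 (-1.76). The others were Pilrb2 (-1.05), the partner of Pilra, Sirpb1a (-1.23) and Sirpb1c (-1.32). Pira2 (-0.21), Pilrb1 (-0.31) and Sirpb1b (0.15) were not called at 6 h. Pilrb2 lost its call under median centring and quantile normalization. At 24 h, where 14.6% of all genes were called higher and 18.7% lower, Trem2, Sirpb1a (-1.31) and Sirpb1c (-1.501) fell and Pilrb1 (1.21) rose, the last uncalled under scaling to the own total of reads (0.88). Trem2 was 50.4-fold lower (-5.66 ± 0.16, adjusted p = 1.02e-13), Trem3 measured -0.28 and Pilrb2 0.51. The response differed between times in 4 of 9 genes, 3 higher and 1 lower, where 13.3% of all genes were called higher and 18.1% lower, with Trem2 more negative at 24 h (-4.36 ± 0.22, adjusted p = 7.65e-10) and Trem3, Pilrb1 and Pilrb2 less negative or positive.

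The other ITIM receptors of myeloid cells were mixed. Of 11 genes 9 were listed and tested, and 2 rose and 4 fell at 6 h, while 1 rose and 5 fell at 24 h. Over all genes 19.5% were called higher and 20.1% lower at 6 h, so that the 2 of 9 that rose are near the share of all genes, and 14.6% and 18.7% at 24 h. The list's median was 0.21 at 6 h and -1.51 at 24 h, beside -0.11 and 0.007 over all genes. Median centring called 3 of the 9 higher at 6 h. Lair1, a collagen receptor, rose at both times (2.14 and 1.18), though not under scaling to the own total of reads at 24 h (0.85). Siglece, an inhibitory receptor for sialic acids, was lower by a log2 difference of -2.01 at 6 h and -5.10 at 24 h, and the C-type lectin Clec4a2 by -3.03 and -4.64. Ceacam1 was at -4.59 and -3.42. Fcgr2b, the inhibitory Fc receptor, fell at 6 h (-1.41), and Cd72 fell at 24 h (-1.61). The adhesion receptor Pecam1 rose at 6 h (1.12 ± 0.12, adjusted p = 1.69e-05) and fell at 24 h (-1.51 ± 0.29, adjusted p = 0.000243), and scaling to the own total of reads left it uncalled at 6 h (0.39).

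The adaptors had medians of -0.093 with stimulus at 6 h and -0.79 at 24 h, beside -0.11 and 0.007 over all genes. None of the 3 adaptors, Tyrobp, Fcer1g and Hcst, was called in any tested comparison. With the deposited scaling Fcer1g was higher with stimulus, by 0.46 at 6 h and 0.50 at 24 h on the log2 scale, both under 2-fold. Tyrobp, at -0.34 and -0.79 with stimulus at 6 and 24 h, was called lower at both times under scaling to the own total of reads and under quantile normalization. Hcst, at -0.82 with stimulus at 24 h, was called lower at that time under scaling to the own total of reads (-1.15). Among the enzymes, Ptpn6 (1.28), which is the phosphatase recruited by ITIMs, and the kinase Fgr (1.15) rose with stimulus at 24 h, and Csk (-1.02), which restrains kinases of the Src family, fell. Scaling to the own total of reads and quantile normalization left Ptpn6 and Fgr uncalled. Without stimulus Ptpn6 and Fgr fell from 6 to 24 h.

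The ligands on the list rose together with stimulus. Of 5 genes 4 were listed, and 4 of 4 rose at both times, with medians of 1.77 at 6 h and 1.86 at 24 h, where 19.5% and 14.6% of all genes were called higher and their medians were -0.11 and 0.007. B2m, the light chain of MHC class I, was 5.01-fold higher at 6 h (2.32 ± 0.080, adjusted p = 4.74e-09) and 4.34-fold at 24 h. The class I heavy chains H2-K1 (1.62 at 6 h, 2.55 at 24 h) and H2-D1 (1.92, 1.60) and Cd47 (1.45, 1.29) followed on the log2 scale. All kept their direction under each scaling. Scaling to the own total of reads left 2 of the 4 called at 6 h and 3 at 24 h, and under quantile normalization Cd47 and H2-D1 were called at neither time and H2-K1 not at 6 h. Between genotypes in stimulated cells at 6 h, 0 genes of the lists of receptors, adaptors and ligands were called. Over all genes tested 0.0248% were called higher and 0.00826% lower, so that 0 is near the share of all genes.

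**Figure D4:**
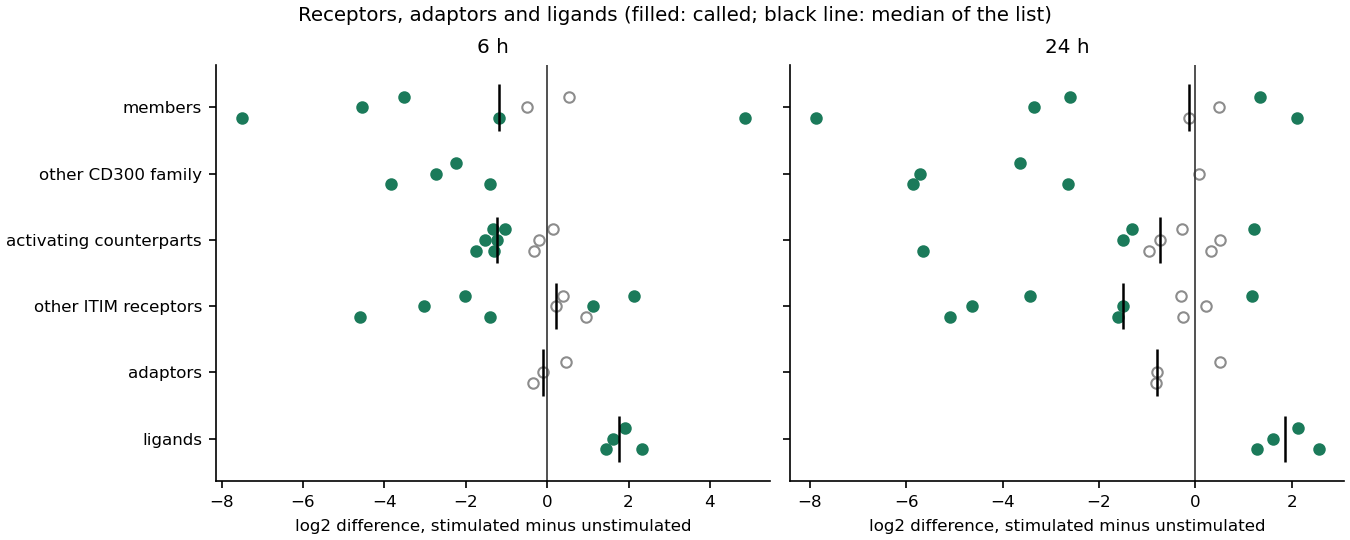
Log2 differences with stimulus at 6 h and 24 h for the members and the lists of receptors, adaptors and ligands, on the horizontal axis, with 1 point per gene, filled where called, 1 line of points per list and a black mark at the median of the list, not drawn for the other CD300 genes. The 4 ligand genes are all above 0 at both times.

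Likeness to Cd300lf was described over the 16 libraries by Pearson's r of log2 CPM among 12781 other genes. The libraries fall into 4 conditions, so r mostly compares condition means and carries no p. Ppt1, a lysosomal thioesterase, was the most similar (r = 0.993), before AB124611 (0.991), Ccdc6 (0.986), Tlr11 (0.985) and Jak3 (0.985), the kinase of common gamma chain receptors. The least similar were Klf2 (r = -0.980), a transcription factor of quiescent cells, Ddx11 (-0.976) and Mdm1 (-0.974). Ppt1 averaged 5.35 log2 CPM in unstimulated and 8.33 in stimulated cells at 6 h, then 6.84 and 8.48 at 24 h. Among the members r with Cd300lf was -0.900 for Cd300a, -0.876 for Cd300lb, -0.767 for Cd300ld, 0.702 for Pirb, -0.391 for Sirpa and 0.076 for Pilra.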

How the data were processed

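RNA of 16 mouse monocyte libraries was sequenced. The authors checked reads with FastQC, aligned them with STAR, counted them with Rsubread and normalized them with edgeR, naming builds GRCm39 and mm39. The deposited values are log2 CPM, and they equal log2 of whole reads plus 0.5 over a scaled size (tolerance 0.05 read, below 5000 reads). 0 columns belonged to no sample. Genes that reached 1 CPM in 2 or more libraries were fitted with limma 3.58.1 (moderated test with trend, R 4.3.3), over 8 libraries at 6 h and over 16 for comparisons with 24 h, with adjustment over all genes tested by the Benjamini-Hochberg method. The code was tested on simulated data. Lengths came from GENCODE release M21. At this depth the spread between libraries limits precision more than counting does. The members and lists were chosen with earlier results of these data known. Named genes are all members, Nfam1, and from each pathway list up to 4 called genes with the largest change; for likeness, the 5 highest and 3 lowest. Some results of these lists are not reported here. Alternatives covered filters, scaling, prior variance, voom weights, the fold threshold, the genotype label and leaving out each library.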

Additional observations from a re-analysis of the deposited data

Results flagged for a closer look

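Pirb in stimulated cells at 24 h had 1 library apart from the other 3. The library titled NFAM1-/- and tagged NFAM1+/+ was the lowest, and its gap to the nearest library was 0.8382 of the whole range, above Dixon's critical value for 4 libraries. Chance alone marks about 1 in 20 groups in this way, and 16 groups were looked at.

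The response to IFN-γ plus CD40L differed between 6 h and 24 h in a test of the difference itself for 3 members. Over all genes tested 13.3% were called higher and 18.1% lower in this comparison. For Cd300ld the 24 h response minus the 6 h response was 1.214 on the log2 scale. For Cd300lf it was -2.738. For Sirpa it was 1.058. The values of Cd300ld and Sirpa were near the fold threshold and fell below it in some alternatives. Cd300ld was at 0.9648 under quantile normalization and Sirpa at 0.9012 under median centring. Without the unstimulated 24 h library titled NFAM1-/- and tagged NFAM1+/+ they were at 0.997 and 0.9728.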

How the results depend on the processing

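The results were recomputed with 1 choice changed at a time. Recomputed values of single members, and of Nfam1 for genotype at 24 h, were counted together. Of these, 800 kept direction and side of the threshold or moved by less than the spread. Another 15 passed the threshold anew, 7 no longer passed it and 10 with a test changed sign. A further 19 without a test moved further, 12 of these to the other sign. Of the 800, 4 without a test changed sign within the spread. The 5 members called with stimulus at 6 h became 7 with no minimum fold change and 6 with the own total of reads, and the 5 at 24 h became 4 with quantile normalization; under the other alternatives both counts were 5. The 3 over time with stimulus became 4 with quantile normalization and with the own total of reads. With no minimum fold change, by construction, 9605 genes were called with stimulus at 6 h, 9436 at 24 h, 7994 over time without stimulus, 9595 over time with stimulus and 8375 for stimulus by time, and 4, 6 and 6 members in the last 3. Requiring a mean of 5 CPM, which tests fewer genes, gave 3141, 2555, 1444, 2744 and 2654. For genotype in stimulated cells at 6 h the 4 called genes became 1 with that filter, 2 with median centring, and 0 with only the compared groups, no variance trend or voom weights; leaving out single libraries gave 0 to 135. The cause was not tested. Pilra in that comparison ranged from -0.3663 to 0.07765, positive without the first NFAM1+/+ library. Pirb with stimulus at 6 h turned to -0.4665 under quantile normalization and -0.1913 under the own total of reads. Cd300lf over time with stimulus was -0.1569 under median centring and -0.1353 to 0.1473 without single libraries. With agreeing genotype labels alone, an alternative chosen after seeing the data, it was -0.01929. For stimulus by time the own total of reads called 6 members and turned Cd300lb to 0.02698, and leaving out single libraries gave 1 to 4 members. The unstimulated Cd300lf genotype difference at 6 h ranged from 0.9405 to 1.213. At 24 h it was -0.01259 by title without stimulus and -0.1627 by tag with stimulus. Scaling to the own total of reads shifted the median of all genes by -0.731 and -0.333 with stimulus at 6 h and 24 h, 0.373 over time with stimulus and 0.397 for stimulus by time. The share of called genes that were higher then went from 49.3% to 22.6%, from 43.9% to 30.4%, from 49.1% to 69.4% and from 42.4% to 67.5%. Median centring shifted the last 2 by -0.175 and -0.157, with shares of 38% and 32.8%, and stimulus at 6 h by 0.125; quantile normalization shifted stimulus at 6 h by -0.116 and stimulus by time by 0.104. Relative to the median of all genes, Cd300lf was at 4.96 and Cd300lb at -7.40 with stimulus at 6 h. A group left with 1 library was assumed to vary like the others. No paired analysis was possible because the labels share no number between groups and do not say which libraries share a mouse; first and second follow the order of deposit. Cd300lb in stimulated cells rests on few reads, 54 to 128 per library.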
